A study of Arabidopsis thaliana with 4 samples.

Results

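The oil body coat of developing Arabidopsis seeds was followed through 9 genes: the oleosins OLEO1 (AT4G25140), OLEO2 (AT5G40420), OLEO3 (AT5G51210), OLEO4 (AT3G27660) and AT3G01570, the caleosins CLO1 (AT4G26740) and CLO2 (AT5G55240), the steroleosin HSD1 (AT5G50600), and the oil body-associated protein gene OBAP1A (AT1G05510). They were taken by locus identifier from a table of 33187 identifiers. All 9 reached a TPM of 1 or more (transcript abundance per length, scaled to the same total in each library) in 2 or more libraries, as did 20804 identifiers in all, and these were tested. RNA came from whole Arabidopsis thaliana seeds at 7 days post anthesis, with torpedo or linear embryos. Libraries from erf4 seeds came from the T-DNA insertion line SALK_073394 (erf4_2 in the sample titles), and those of the other genotype from wild-type seeds, with 2 libraries of each. The erf4 group is 1 insertion line, and no other treatment or allele is named for either group.

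Seeds store triacylglycerol in oil bodies, droplets of oil bounded by a single layer of phospholipid. Oleosins anchor in the oil by a long hydrophobic hairpin and keep the droplets small and apart, while caleosins bind calcium and have peroxygenase activity and steroleosins are sterol dehydrogenases of the same surface. These coat genes are switched on in the maturing embryo, where the B3 transcription factors ABI3, FUS3 and LEC2 bind the RY element CATGCA and bZIP factors bind ACGT-containing boxes.

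The 250 bases before the annotated start of each gene were read from TAIR10.1 (RefSeq) by locus identifier, since the build behind the TPM file is not given in the sources used here. On either strand, CATGCA stood in all 9 windows, against 8.43% of 27443 protein-coding genes, and 4 of the 9 held at least 2 sites, against 1.66%. The longer RY repeat CATGCATG, which contains CATGCA on both strands, stood in the OLEO4 window only, against 0.776% of all windows. Its 2 overlapping CATGCA matches are the 2 sites counted for OLEO4. Overlapping matches were counted in the same way over all windows. The G-box CACGTG, which contains ACGT, stood in the windows of OLEO1 and OLEO3, with 2 sites each, against 6.49% of all windows. ACGT alone stood in 7 of 9, against 44.1%. The windows of OLEO1 and OLEO3 are shown whole because they share an arrangement, in which CATGCA is followed 11 bases on by TGCATG (the same letters on the other strand) and then by a G-box. Capitals mark the CATGCA sites on either strand and the G-boxes.
OLEO1, chr4:12900180-12900429, plus strand: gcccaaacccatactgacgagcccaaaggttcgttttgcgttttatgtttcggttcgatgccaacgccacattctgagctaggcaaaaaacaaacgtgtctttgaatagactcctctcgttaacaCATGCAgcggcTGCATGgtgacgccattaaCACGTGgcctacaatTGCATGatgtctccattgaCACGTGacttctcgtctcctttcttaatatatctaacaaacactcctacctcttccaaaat
OLEO3, chr5:20819818-20820067, plus strand: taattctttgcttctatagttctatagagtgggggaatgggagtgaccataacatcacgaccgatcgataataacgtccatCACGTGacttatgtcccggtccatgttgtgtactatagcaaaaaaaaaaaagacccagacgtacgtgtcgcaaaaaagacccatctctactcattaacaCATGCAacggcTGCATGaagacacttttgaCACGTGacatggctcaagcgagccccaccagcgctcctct

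For the other 7 genes, 1 CATGCA site each is shown with 10 bases on both sides, in capitals and read along the gene's own strand. The CLO1 and CLO2 sites lie 25 and 34 bases before the start and share the letters that follow them up to the last one shown. The HSD1 window is the same, base for base, as that of a second locus, AT5G50700. The windows of AT3G01570, CLO1 and OBAP1A overlap a neighbouring gene by 110, 5 and 94 bases. These matches describe the letters and do not show that a factor binds.
OLEO2, chr5:16174877-16174902, minus strand: acttggaaatCATGCAaagccacacc
OLEO4, chr3:10243084-10243109, plus strand: ttttgtttcaCATGCAtgctgtccaa
AT3G01570, chr3:222922-222947, minus strand: acttgttactCATGCAagcttctcag
CLO1, chr4:13475381-13475406, minus strand: cgtcggcgcgTGCATGtccgccacgc
CLO2, chr5:22405852-22405877, plus strand: ttgtcgtgtgTGCATGtccgccacgg
HSD1, chr5:20592025-20592050, minus strand: atcacccatgTGCATGgttattagag
OBAP1A, chr1:1629389-1629414, plus strand: tgtcatagtcCATGCAaatgcccact

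**Figure D1:**
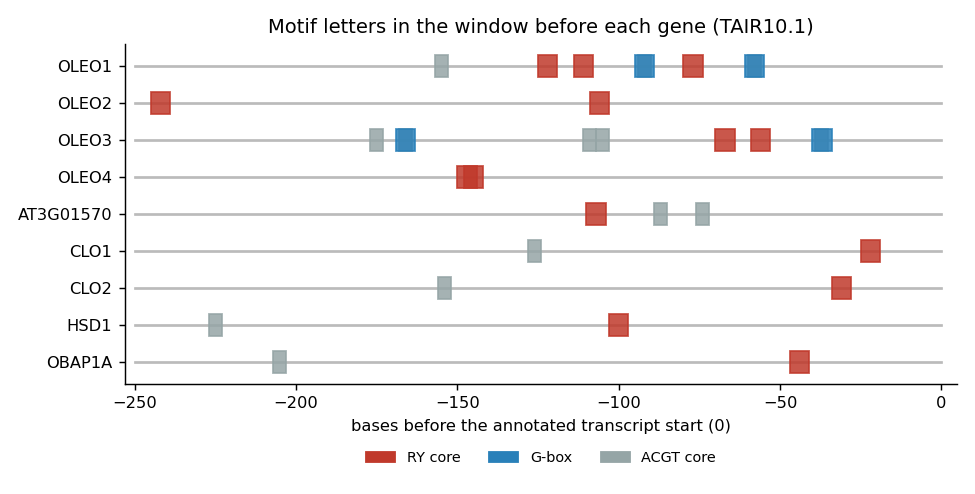
Positions of CATGCA (RY core), CACGTG (G-box) and other ACGT matches in the 250 bases before the annotated start of each gene, on either strand, with distance from the start in bases on the x axis. Each of the 9 genes has at least 1 CATGCA match, and OLEO1 and OLEO3 have 2 G-boxes each.

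The targeted gene did not check the labels. ERF4, an ethylene response factor that represses transcription, stood at 34.6 and 41.3 TPM in the libraries labelled erf4 and at 38.0 and 33.0 TPM in wild type. A T-DNA insertion need not lower the counted transcript, and the position of the insertion relative to the counted reads was not analysed here. Separate plants or growths are not named for the libraries of either genotype. The p-values therefore cover library-to-library spread alone, and that spread may be technical. TPM keeps no read counts, so depth is unknown.

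The second erf4 library stood apart in seed storage transcripts. Summed over 12 storage protein genes, TPM was 33904 and 882 in the erf4 libraries, against 30234 and 15785 in wild type. Of all tested genes, 12.2% had both erf4 libraries below both wild-type libraries, here called below the wild-type range, and 21.5% had both above. Summed embryo patterning markers were 35.3 and 39.2 TPM in erf4 and 40.0 and 36.3 TPM in wild type, with 2 of 5 tested below the wild-type range, 1 above it, and CLV3 near 0 throughout. The 6 endosperm markers summed to 838 and 698 TPM in erf4 and to 1579 and 1233 TPM in wild type, although of the 5 tested 4 exceeded both wild-type libraries and 1 was under both, with IKU2 near 0. The 7 seed coat markers were all above the wild-type range, summing to 8045 and 4583 TPM in erf4 and to 3603 and 2318 TPM in wild type. Silique wall and leaf markers summed to 785 and 750.3 TPM in erf4, against 637 and 593 TPM in wild type, with 5 of 6 tested above that range, 1 below it, and AP1 near 0. The part of these shifts in the results below was not tested, and in RNA from whole seeds, fewer cells of a type and less RNA per cell cannot be told apart. The fold change of each of the 9 genes and the medians of gene lists are therefore also given for the first erf4 library alone.

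Oil body coat transcripts were less abundant in the erf4 libraries, by an amount that differed between genes and between the 2 libraries. The 9 genes summed to 4170.4 and 1637 TPM in erf4, against 6626 and 6210 TPM in wild type, which is 0.417% and 0.164% of all transcripts against 0.663% and 0.621%. No gene of the 20804 passed an adjusted p of 0.05 (limma, Benjamini-Hochberg), a share of 0%. The smallest adjusted p among the 9 was 0.425, for HSD1 as AT5G50600 alone. At an unadjusted limma p under 0.05, 3 of the 9 were lower and 0 higher, beside 571 lower and 881 higher of the 20804. Those 3 include HSD1 as AT5G50600 alone, and summed with the second locus AT5G50700 its unadjusted limma p was 0.0598. The fitted log2 fold change was negative for 9 of 9, with a median of -1.45, beside 0.03 over all tested genes. That median was -0.51 with the first erf4 library alone, where CLO2 and OBAP1A turned positive, and -3.07 with the second alone. Both erf4 libraries were below both wild-type libraries for 7 of the 9, beside 12.2% of all tested genes, and above both for 0, beside 21.5%.

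**Figure D2:**
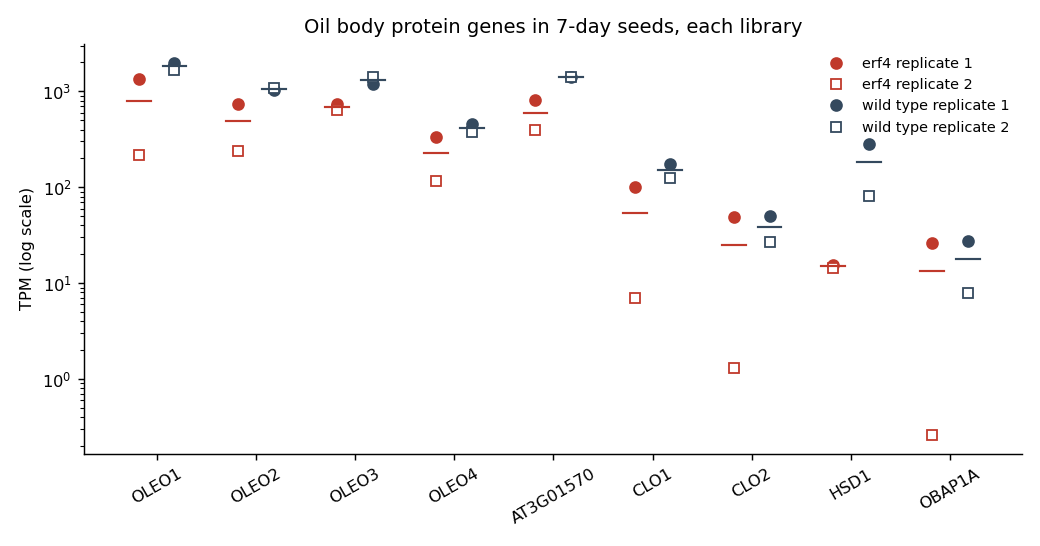
TPM of each of the 9 genes in each library on a log axis, erf4 left of wild type; points are single libraries. The 2 erf4 points lie below both wild-type points for 7 genes, and for CLO2 and OBAP1A the first erf4 library lies within the wild-type range.

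The oleosins made up most of the coat transcripts. The 5 genes summed to 3979.9 and 1614 TPM in erf4, against 6091 and 5968 TPM in wild type. All 5 were lower in both erf4 libraries than in either wild-type library, and with the first erf4 library alone the fitted differences from the wild-type mean were between -0.82 and -0.31 on the log2 scale.

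OLEO1, the most abundant seed oleosin and a determinant of oil body size, had 1359 and 216 TPM in erf4, against 1995 and 1674 TPM in wild type. The second erf4 library was far below the other 3, and the groups did not overlap. The log2 fold change was -1.75 (SE 0.84, 95% interval -3.88 to 0.38), with a limma adjusted p of 0.809, and it was -0.43 with the first erf4 library alone.

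OLEO2 had 744 and 241 TPM in erf4 and 1039.9 and 1086 TPM in wild type. Its wild-type libraries were close together, and the groups did not overlap. This gave a log2 fold change of -1.33 (SE 0.53, 95% interval -2.66 to 0.01, limma adjusted p 0.721), and -0.51 with the first erf4 library alone. OLEO4, whose coding sequence is the nearest to that of OLEO2 among the 5 (64.2% identical), had 334 and 118 TPM in erf4, against 452 and 379.8 TPM in wild type. Its groups did not overlap either, and its second erf4 library was again the lowest. Its log2 fold change was -1.06 (SE 0.49, 95% interval -2.30 to 0.18, limma adjusted p 0.792), and -0.31 with the first erf4 library alone.

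OLEO3 differed from the other oleosins in that both erf4 libraries were close to each other, at 734 and 644 TPM, against 1197 and 1410.4 TPM in wild type. The averages were 689 ± 64.0 TPM in erf4 and 1304 ± 151 TPM in wild type (SD, n = 2 each), so wild type was 1.89-fold higher. On the log2 scale the fold change was -0.92 (SE 0.20, 95% interval -1.42 to -0.42), with an unadjusted limma p of 0.00489 and an adjusted p of 0.461. With either erf4 library alone it stayed near that value, at -0.82 with the first and -1.01 with the second. The oleosin AT3G01570 had 807 and 396 TPM in erf4, against 1406 and 1418 TPM in wild type. Its wild-type libraries were nearly equal, and the averages were 602 ± 291 and 1412 ± 8.12 TPM (SD, n = 2 each), a 2.35-fold difference. The log2 fold change was -1.32 (SE 0.36, 95% interval -2.23 to -0.41), with an unadjusted limma p of 0.0135 and an adjusted p of 0.548, and -0.81 with the first erf4 library alone.

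The make-up of the oleosin pool was alike in 3 libraries and different in the second erf4 library. OLEO1 was 34.2% and 13.4% of the summed oleosin TPM in erf4, against 32.8% and 28.1% in wild type. OLEO3 was 18.5% and 39.9% in erf4 and 19.7% and 23.6% in wild type. OLEO1 was the most abundant of the 5 in every library except the second erf4 library, where OLEO3 led. AT3G01570 kept between 20.3% and 24.5% of the pool in all 4 libraries, and OLEO4, the least abundant, between 6.36% and 8.40%. Among all identifiers, OLEO3 ranked 130 and 140 by TPM in erf4, against 50 and 44 in wild type, while OLEO1 ranked 48 and 719 in erf4, against 31 and 32.

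The caleosins were expressed far below the oleosins and varied more between libraries. CLO1, the seed caleosin also known as peroxygenase 1, had 99.98 and 7.00 TPM in erf4, against 176 and 126 TPM in wild type. Both erf4 libraries were below wild type, but the second was 14.3-fold below the first. Its fitted log2 fold change was -2.40 (SE 1.15, 95% interval -5.31 to 0.51, limma adjusted p 0.806), and -0.57 with the first erf4 library alone. CLO2 had 48.4 and 1.31 TPM in erf4 and 50.01 and 26.6 TPM in wild type. The groups overlapped, since the first erf4 library was nearly level with the higher wild-type library. For CLO2 the log2 fold change was -1.81 (SE 1.40, 95% interval -5.37 to 1.74, limma adjusted p 0.986), and its sign turned to 0.40 with the first erf4 library alone. A pseudocount of 0.1 or 5 in place of 1 gave -2.15 or -1.18. CLO1 and CLO2 transcripts are 80.7% identical over 735 bases.

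HSD1, a steroleosin, had the largest fitted difference of the 9 in the deposited values, and that difference depends on how reads of its 2 loci were divided. AT5G50600 had 15.6 and 14.3 TPM in erf4, against 282 and 81.6 TPM in wild type, a 12.2-fold difference of means. The erf4 libraries were level and the groups were well apart. The log2 fold change was -3.26 (SE 0.57, 95% interval -4.70 to -1.83), with an unadjusted limma p of 0.0019 and an adjusted p of 0.425. The second locus, AT5G50700, carries the same 1050-base coding sequence, and the 1549-base transcript of AT5G50600 is contained whole, without a mismatch, in the 1569-base transcript of AT5G50700. AT5G50700 was listed at 114 and 0 TPM in erf4, against 3.22 and 99.9 TPM in wild type, a pattern that followed neither genotype nor replicate number.

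Summed over both loci, HSD1 had 129 and 14.3 TPM in erf4, against 285 and 181.5 TPM in wild type. The first erf4 library now lay nearer to the lower wild-type library than to the second erf4 library, as for CLO1. The averages were 71.8 ± 81.3 TPM in erf4 and 233 ± 73.4 TPM in wild type (SD, n = 2 each), a 3.25-fold difference in place of 12.2-fold. For the sum, the log2 fold change was -2.36 (SE 0.98, 95% interval -4.85 to 0.14), with a limma adjusted p of 0.75, and -0.81 with the first erf4 library alone. AT5G50600 held 12.1% of the sum in the first erf4 library and all of it in the second, against 98.9% and 45.0% in wild type. Apart from the bases that the longer transcript adds, the sequences do not tell the loci apart, so the sum is taken as the level of HSD1 transcripts. With the sum in place of AT5G50600, the median over the 9 genes stayed at -1.45, with 7 below the wild-type range. The unadjusted limma p of HSD1 rose to 0.0598, so it was no longer among the members under 0.05.

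**Figure D3:**
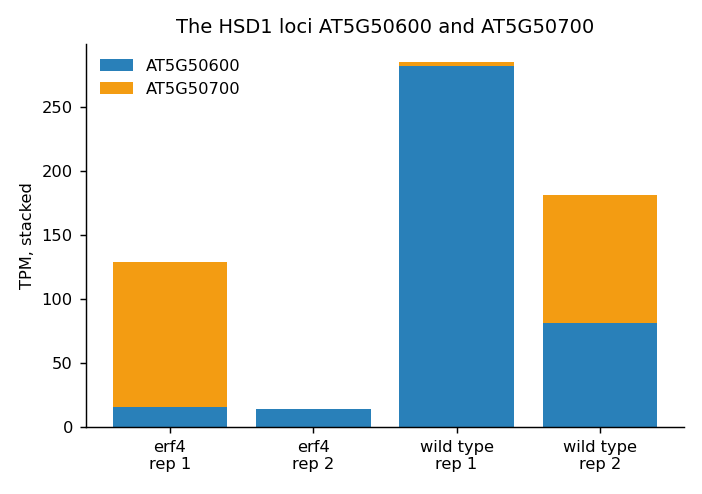
TPM of the HSD1 loci AT5G50600 and AT5G50700, which share 1 coding sequence, in each library, stacked to their sum, erf4 left of wild type. AT5G50600 holds between 12.1% and all of the sum, which is 129 and 14.3 TPM in erf4 and 285 and 181.5 TPM in wild type.

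OBAP1A, known in maize and Arabidopsis for a part in oil body stability, was the least abundant of the 9. It had 26.45 and 0.26 TPM in erf4, against 27.7 and 7.96 TPM in wild type. The first erf4 library lay within the wild-type range and the second was close to 0. The log2 fold change was -1.45 (SE 1.48, 95% interval -5.20 to 2.31, limma adjusted p 1), and its sign turned to 0.78 with the first erf4 library alone. Pseudocounts of 0.1 and 5 gave -2.28 and -0.68.

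The second erf4 library was lower than the first for all 9 genes, by 1.14-fold for OLEO3, 2.04-fold for AT3G01570, 2.84-fold for OLEO4, 3.09-fold for OLEO2 and 6.29-fold for OLEO1. The same ratio was 9.03-fold for both HSD1 loci summed, 14.3-fold for CLO1, 36.9-fold for CLO2 and 102-fold for OBAP1A. Wild-type replicates ranked the genes in nearly the same order with far smaller ratios of the first over the second library, between 0.849 for OLEO3 and 3.48 for OBAP1A. Across the 9 genes, the gaps between replicates in log2(TPM + 1) had a Pearson r of 0.878 and a Spearman rho of 0.933 between the genotypes. This describes genes that share the same 4 libraries, and genes are not replicates. The median gap over the 9 was 2.65 on the log2 scale in erf4 and 0.25 in wild type, beside a median absolute gap of 0.27 and 0.18 over all tested genes.

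**Figure D4:**
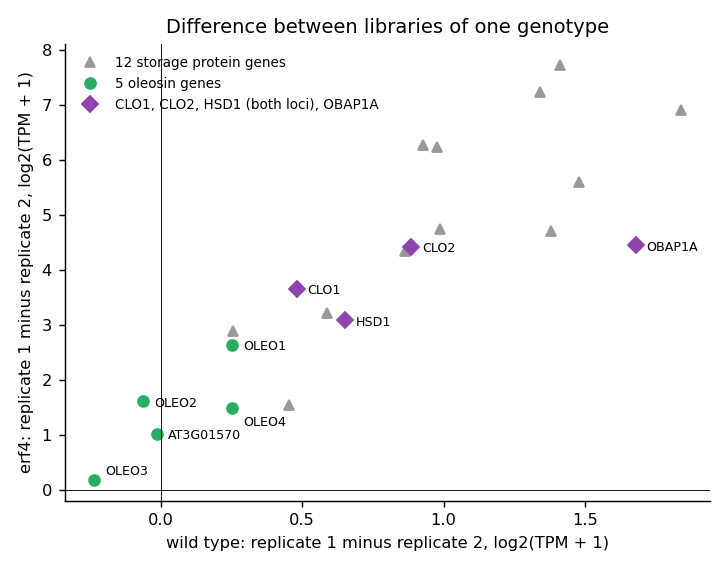
Replicate 1 minus replicate 2 in log2(TPM + 1), within erf4 and within wild type, for each of the 9 genes, with both HSD1 loci summed, and for 12 storage protein genes. Of the 9 genes, OLEO3 has the lowest difference in both genotypes and OBAP1A the highest, and their median is 2.65 in erf4 and 0.25 in wild type.

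Oleosins and storage proteins stood in a different order across the libraries. The 5 genes for 2S albumins, small storage proteins of the embryo, summed to 26582 and 502 TPM in erf4, against 22794 and 11036 TPM in wild type. In the first erf4 library the 2S albumins were thus above both wild-type libraries while the oleosins were below both. The ratio of summed oleosin to summed 2S albumin TPM was 0.150 and 3.21 in erf4 and 0.267 and 0.541 in wild type, so the 2 erf4 libraries lay on opposite sides of both wild-type libraries. Of the 12 storage protein genes, 2 were below the wild-type range, beside 12.2% of all tested genes. The median log2 fold change of the 12 was -1.94, and its sign rested on the second erf4 library. With the first alone the median was 0.64, and 8 of the 12 were above the wild-type mean. The 2 below the range were the 12S globulin gene CRA1, at 2311 and 309 TPM in erf4 and 3283 and 2750.5 TPM in wild type, and AT2G18540, at 17.7 and 5.37 TPM in erf4 and 48.4 and 35.1 TPM in wild type. The cupin genes AT2G28490, at 124 and 12.4 TPM in erf4 and 168 and 111 TPM in wild type, and PAP85, at 201 and 8.93 TPM in erf4 and 273 and 149 TPM in wild type, had the overlap seen for CLO2. Centred on each gene's mean over the 4 libraries, the median log2 value of the 5 oleosins was 0.15 and -1.28 in erf4 and 0.65 and 0.67 in wild type. The medians of the other 4 coat genes, with HSD1 summed, were 0.97 and -2.99 in erf4 and 1.47 and 0.66 in wild type, and those of the storage proteins were 1.76 and -3.50 in erf4 and 1.56 and 0.56 in wild type.

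**Figure D5:**
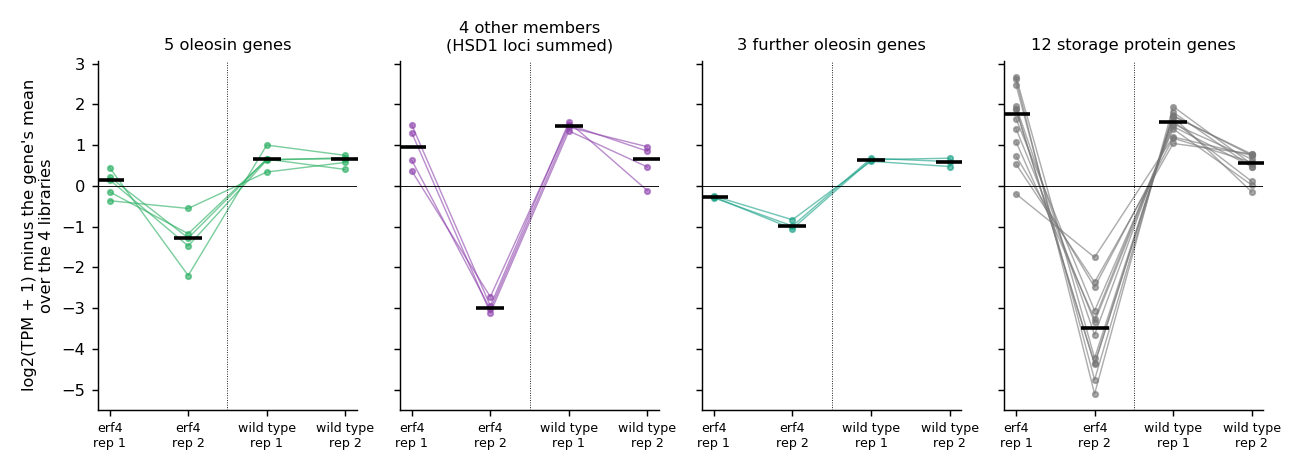
Log2(TPM + 1) of each gene in each library, centred on the gene's mean over the 4 libraries, erf4 left of wild type, with a bar at each panel's median. The panels hold the 5 oleosins, the 4 other coat genes with HSD1 summed, 3 further oleosin family genes and the 12 storage protein genes. The storage protein median stands at 1.76 and -3.50 in erf4 and the oleosin median at 0.15 and -1.28.

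Relatives of the coat genes were taken from the same families. Of 27 listed, 20 were tested, and 9 were below the wild-type range and 0 above it, beside 12.2% and 21.5% of all tested genes. AT5G50700, the second HSD1 locus, is counted here as a tested relative and was not below that range. None of these 20 passed an adjusted p of 0.05. An unadjusted limma p under 0.05 was found for 6, all lower, beside 571 lower and 881 higher of the 20804. The 3 oleosin family genes outside the tapetum all belonged to those 6. AT1G48990 had 27.7 and 15.7 TPM in erf4, against 53.1 and 54.5 TPM in wild type, a log2 fold change of -1.32 (SE 0.28, limma adjusted p 0.461). AT2G25890 had 7.91 and 4.52 TPM in erf4 and 16.4 and 15.5 TPM in wild type, and AT3G18570 had 18.7 and 12.2 TPM in erf4 and 34.55 and 31.5 TPM in wild type. Like the abundant oleosins, these 3 were lower in both erf4 libraries. CATGCA stood in their 250-base windows, as it did in 16 of the 27 relatives. The 16 include AT5G50700, whose window is that of HSD1. They also include GRP14, GRP18 and HSD2, which were not below the wild-type range. HSD6 was below that range, and its window held no CATGCA. With the first erf4 library alone the median of the 20 tested relatives was -0.61.

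Tapetal oleosins, which coat pollen, had summed levels of 21.4 and 67.1 TPM in erf4 and 52.3 and 91.5 TPM in wild type, with overlap. The tapetal oleosin GRP19 had 0.89 and 0.65 TPM in erf4, against 5.17 and 7.29 TPM in wild type, a log2 fold change of -2.02 (SE 0.27, limma adjusted p 0.343). GRP14 had 10.8 and 42.9 TPM in erf4, against 27.6 and 47.7 TPM in wild type, and GRP18 had 3.47 and 16.9 TPM in erf4, against 8.73 and 23.1 TPM in wild type. The second library of each genotype had the more GRP14 and GRP18, the opposite of the 9 coat genes in erf4.

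No other tested caleosin lay below the wild-type range in erf4. CLO3, known as RD20 and induced by drought, had 551 and 293 TPM in erf4, against 339.6 and 225 TPM in wild type, a log2 fold change of 0.54, or 0.99 with the first erf4 library alone. AT1G70680 had 521 and 674 TPM in erf4 and 390.0 and 555 TPM in wild type, and CLO4 had 153 and 198 TPM in erf4 and 123 and 193.5 TPM in wild type. Their ranges overlapped between genotypes.

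Among other steroleosins, HSD6 had 59.2 and 74.85 TPM in erf4, against 103 and 127 TPM in wild type, a log2 fold change of -0.77, and HSD5 had 19.8 and 10.2 TPM in erf4, against 33.8 and 28.6 TPM in wild type, a log2 fold change of -1.07, or -0.63 with the first erf4 library alone. Both were below the wild-type range. HSD2, at 73.0 and 70.2 TPM in erf4 and 74.8 and 61.1 TPM in wild type, and HSD3, at 7.86 and 14.4 TPM in erf4 and 11.0 and 13.85 TPM in wild type, overlapped between genotypes. Of the genes related to OBAP1A, AT1G29680 had 14.2 and 1.64 TPM in erf4, against 22.5 and 14.3 TPM in wild type.

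Genes for droplet formation and turnover and for oil synthesis were divided in direction. Of 16 lipid droplet genes, 4 were below the wild-type range and 3 above, beside 12.2% and 21.5% of all tested genes. Their median log2 fold change was -0.05, also with the first erf4 library alone, and 0 passed an adjusted p of 0.05. AT1G65090 was placed on that list as SLDP1, among the droplet formation genes, though RefSeq gives it no such role. It had 115 and 114 TPM in erf4, against 238 and 244 TPM in wild type. Its libraries were level within each genotype, and the log2 fold change was -1.07 (SE 0.13), with an unadjusted limma p of 3.88e-04 and an adjusted p of 0.302. CDC48A, an ATPase that extracts proteins from membranes, had 251 and 237 TPM in erf4 and 217 and 155 TPM in wild type. The seipin AT5G16460, of a family that shapes nascent droplets, had 1.21 and 0.05 TPM in erf4, against 1.98 and 1.49 TPM in wild type. SDP1-LIKE, a relative of the triacylglycerol lipase SDP1, had 3.11 and 3.31 TPM in erf4 and 4.70 and 4.30 TPM in wild type.

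Of 13 oil synthesis genes, 2 were below the wild-type range and 5 above, beside 12.2% and 21.5% of all tested genes. Their median log2 fold change was 0.03, also with the first erf4 library alone, and 0 passed an adjusted p of 0.05. FAE1, the condensing enzyme that elongates fatty acids to the very long chains of seed oil, had 52.2 and 56.9 TPM in erf4, against 104 and 119 TPM in wild type. Both erf4 libraries were close together and well below wild type, with a log2 fold change of -1.01 (SE 0.15), an unadjusted limma p of 8.43e-04 and an adjusted p of 0.407. ROD1, which feeds phosphatidylcholine-derived diacylglycerol into oil, had 38.9 and 28.7 TPM in erf4, against 47.4 and 42.8 TPM in wild type. DGAT1, the main acyltransferase of seed oil, had 31.3 and 50.1 TPM in erf4, against 45.4 and 57.2 TPM in wild type, with overlap, and DGAT3 had 213 and 230.2 TPM in erf4 and 162 and 196 TPM in wild type.

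Among 17 regulators of seed maturation, 6 were below the wild-type range and 2 above, beside 12.2% and 21.5% of all tested genes. Their median log2 fold change was -0.12 (-0.22 with the first erf4 library alone), and 0 passed an adjusted p of 0.05. The bZIP factor gene EEL had 62.4 and 87.3 TPM in erf4, against 139 and 161 TPM in wild type, and BZIP67 had 28.05 and 32.6 TPM in erf4, against 48.5 and 61.1 TPM in wild type. L1L, a relative of LEC1, had 112 and 151 TPM in erf4 and 197 and 214.5 TPM in wild type. LEC1, a NF-YB subunit that drives embryo maturation, was above the wild-type range, at 118 and 109.8 TPM in erf4 and 74.0 and 78.2 TPM in wild type. The B3 factor gene FUS3 had 63.4 and 115 TPM in erf4, against 145 and 175 TPM in wild type. ABI3 had 20.4 and 29.9 TPM in erf4, against 37.1 and 35.3 TPM in wild type. Both were below the wild-type range and lower in the first erf4 library than in the second. LEC2, at 11.1 and 17.3 TPM in erf4 and 10.9 and 13.0 TPM in wild type, overlapped between genotypes. CATGCA stood in 3 of these 17 windows, in 1 of 16 lipid droplet windows, in 2 of 13 oil synthesis windows (FAE1 and ROD1) and in 10 of 12 storage protein windows.

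Other genes were ranked by how close their library pattern was to that of the coat, as the Euclidean distance to the 9 genes' median in centred log2(TPM + 1) over the 4 libraries, among 3721 genes with a mean of at least 50 TPM. The ranking depended on how HSD1 entered that median, and 4 of the 10 nearest genes were the same with AT5G50600 alone and with both loci summed. These 4 were ATOEP16-2, for an outer plastid envelope protein, AT1G03103 and AT1G62500, both of the lipid transfer and 2S albumin superfamily, and AT3G22121, a long noncoding RNA. With the loci summed their distances were 0.12, 0.506, 0.513 and 0.563, and with AT5G50600 alone they were 0.44, 0.236, 0.146 and 0.162. AT1G62500 had 134 and 33.5 TPM in erf4, against 209.8 and 169 TPM in wild type. The other 6 nearest with AT5G50600 alone were the seed tonoplast aquaporin gene BETA-TIP (0.198), AT1G54860 (0.245), scpl17 (0.334), AT1G62080 (0.353), AT1G47540 (0.399) and LEA7 (0.453). The other 6 with the loci summed were the storage globulin gene CRA1 (0.267), LTP2 (0.383), ATS3 (0.404), AT2G28490 (0.5), PER1 (0.55) and AT1G62000 (0.55). The 9 genes were themselves spread around their median, at distances with the loci summed of 0.117 for OLEO1, 0.748 for HSD1, 0.843 for OLEO2, 1.02 for CLO1, 1.03 for OLEO4, 1.2 for AT3G01570, 1.37 for CLO2, 1.66 for OBAP1A and 1.92 for OLEO3. Except for OLEO1, each lay farther from it than the 10 nearest other genes did. Those 10 were picked as the nearest of 3720 genes, so this comparison cannot show how alike the 9 are.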

How the data were processed

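The authors deposited 1 table of TPM per gene, with 2 decimals, covering 2 erf4 and 2 wild-type seed libraries, and each library's TPM add up to 1000001 or 1000000. Among the tools in the submitters' processing notes are fastp, HISAT and RSEM, with no version or role. The genome build is not given in the sources used here. Mean columns in the table entered no test. Groups came from the sample titles.

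Values were taken as log2(TPM + 1). Genes reaching 1 TPM in 2 libraries were fitted with limma 3.58.1 (R 4.3.3) with genotype as the only factor and a variance trend. Tests were two-sided, with Benjamini-Hochberg adjustment over 20804 genes and calls at an adjusted p under 0.05. Fold changes on this scale understate those of low genes. With 2 libraries a side, an exact permutation test could not go below 0.333 and was not used. The script was tested on simulated data.

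The text names all 9 members, ERF4, up to 4 genes with the smallest limma p per other list, family members averaging at least 10 TPM, and the 10 genes most alike. It also names ABI3, FUS3 and LEC2, whose factors bind CATGCA. Marker lists are given as sums. Members and lists were chosen with earlier results of these data known.

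Windows and transcripts came from TAIR10.1 (RefSeq), whose locus tags matched 32548 identifiers, and were compared with blastn 2.17.0, Biopython 1.88, pandas 2.3.3 and Python 3.11.15. Alternatives were pseudocounts of 0.1 and 5, no filter, a higher filter (mean of 5 TPM), rescaling by median of ratios or by quantiles, no variance trend, a replicate block, leaving out each library, and, added after seeing the data, the HSD1 loci summed (also for the genes most alike).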

Additional observations from a re-analysis of the deposited data

How the results depend on the processing

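The log2 fold change of 7 members kept its sign under every alternative run, CLO2 and OBAP1A being the exceptions. Leaving out each library gave ranges of -3.07 to -0.43 for OLEO1, -2.14 to -0.51 for OLEO2, -1.03 to -0.80 for OLEO3, -1.81 to -0.31 for OLEO4, -1.83 to -0.81 for AT3G01570, -4.23 to -0.57 for CLO1, -4.02 to 0.40 for CLO2, -4.15 to -2.37 for HSD1 (AT5G50600 alone, adjusted p 0.0222 without wild type replicate 2), -3.67 to 0.78 for OBAP1A and -0.034 to 0.22 for ERF4 (-0.0077 without wild type replicate 2). The median over the 9 ran from -3.07 to -0.51 (-3.07 without erf4 replicate 1, where all genes' median was 0.14), and 7 to 9 lay below the wild-type range. Pseudocounts of 0.1 and 5 gave -2.28 and -0.68 for OBAP1A and -2.15 and -1.18 for CLO2. Over all genes, 0 to 8 were called with a library left out and 44 with no filter. Signs also turned for SUB (-0.63 to 0.067), CLO4 (-0.15 to 0.50), HSD2 (-0.062 to 0.23), HSD3 (-0.59 to 0.21), GRP14 (-1.66 to 0.23), GRP18 (-1.78 to 0.23) and AT5G50700 (-4.37 to 2.48, and 1.34 without wild type replicate 2). With a replicate block, 1083 genes were called, 456 lower and 627 higher, among them OLEO1 (-1.75, adjusted p 0.0109), OLEO2 (-1.33, 0.0101), OLEO3 (-0.92, 0.00194), OLEO4 (-1.06, 0.0103), AT3G01570 (-1.32, 0.00132), CLO1 (-2.40, 0.00805) and HSD1 (AT5G50600 alone, -3.26, 3.63e-05). The summed HSD1 loci were not fitted with a block. The labels do not say whether equal numbers pair libraries. Deviations of the same-numbered libraries correlated at 0.351 across 20804 genes, and 2 pairs do not settle it, so the block stayed an alternative. Rescaling moved the all-gene median to between -0.0049 and -0.0024. The cause of these changes was not tested.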
